A study of Mus musculus with 6 samples.

Results

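Immunoglobulin genes were examined in sorted long-term haematopoietic stem cells (LT-HSC) of the mouse, the rare marrow cells from which every blood lineage can be renewed. The data were 6 microarrays: 3 of NPMc+ pools, each from animals that expressed a mutant nucleophosmin, a nucleolar protein whose leukaemia mutants move to the cytoplasm, and 3 of control pools. Per the labels, all animals were of strain C57/BL6, the cells were sorted from bone marrow 4 months after a bone marrow transplant, each array holds RNA of a pool of animals, and about 5 ng of total RNA was amplified. The labels used here do not give the promoter that drives the mutant, the cells a host still had, the number of animals in a pool or their age.

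The members were all probe sets annotated to exactly 1 symbol of an immunoglobulin heavy, kappa or lambda variable (V), joining (J) or constant segment. With the brightest probe set kept for each symbol and no filter on dim signals, 20 genes of the 22180 measured were found, read by 29 probe sets. They comprised 5 heavy chain segments, 14 kappa segments and 1 lambda segment. The RefSeq table used lists 142 functional heavy, 108 kappa and 9 lambda segments, so the members sample a small share of each locus. The heavy segments lie on chromosome 12, the kappa segments on chromosome 6 and the lambda segment on chromosome 16. All 20 are classed as functional segments in that table.

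An antibody is built from heavy chains paired with kappa or lambda light chains. During B cell development the RAG recombinase joins 1 of many V segments to J segments, and in the heavy chain also to a D segment, upstream of a constant region, so that each B cell mostly uses a single V segment per chain. Constant region transcripts are shared by many B cells, and some run from unrearranged loci in early progenitors. A stem cell sort is meant to exclude cells that have rearranged these genes. V segments of 1 family are close in sequence, so a probe set named for one segment may also read its relatives, and the values below are uncertain in that respect.

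The arrays of a pair (NPMc+ and control with the same replicate number) had the same mean in the deposited values for 100% of probe sets, within 0.001 log2 units. An array high for a gene therefore stands beside a partner that is equally low, the groups have equal SDs, and only the 3 differences within pairs vary freely. In such values the groups of a gene do not overlap exactly when its 3 pair differences share a sign. LT-HSC markers ranged widely in signal in both groups. Kit, the stem cell factor receptor, had means of 9.37 in NPMc+ and 8.94 in control pools (log2 units). Fgd5, the dimmest of the 9 markers measured, had means of 3.85 and 4.05. None of the 9 was below the 25th percentile of gene signals. The pools of pairs 1 and 2 were unlike in sex-linked RNA: NPMc+ minus control was -5.44, -5.39 and 0.48 log2 units in pairs 1, 2 and 3 for Xist, the RNA that coats an inactive X. For the Y-linked genes Eif2s3y, Uty and Kdm5d it was 5.49, 4.68 and 3.48 in pair 1, 0.36, 0.93 and 1.29 in pair 2 and -0.79, 0.35 and -0.67 in pair 3, so that pair 1 held their widest gap. It also held the lowest median of each immunoglobulin chain, given below, and the part of sex differences between pools in the results was not tested. In bulk RNA, fewer cells of a type and less RNA per cell cannot be told apart.

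All 20 immunoglobulin segments had a lower mean in NPMc+ than in control pools, where 51.7% of all genes did. Their mean differences ran from -5.70 to -0.17 log2 units with a median of -1.04, against a median of -0.01 over all genes. In 11 of the 20 the mean difference was below -1 (more than 2-fold lower), where 0.699% of all genes were that low, and 0 were above 1, where 0.491% of all genes were. The groups did not overlap, with NPMc+ lower in 3 of 3 pairs, for 10 members (15.4% of all genes), and 0 members were higher in 3 of 3 pairs (14.3% of all genes).

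At an unadjusted p under 0.05 in limma's moderated test with the pair as a block, 8 of the 20 were lower, where 3.07% of all genes were, and 0 were higher, where 5.12% of all genes were. After Benjamini-Hochberg adjustment over the 22180 genes 0 members passed, as 0 genes did (a share of 0%), and the members' limma adjusted p-values were 0.315 to 0.984. The pair differences of the members scattered widely, with a median SD over the 3 pairs of 2.0 log2 units against 0.30 for all genes. Limma draws such a spread towards that of other genes, so its SE for the most scattered members is smaller than their own 3 differences give. This held for each of the 8 members counted as lower, for instance Igkv4-72, at 0.41 by limma and 0.66 from its own differences. The count of 8 therefore rests on the moderated SEs. The shares over all genes come mostly from genes that scattered far less, so count and share are not on an equal footing. In 13 members at least 1 NPMc+ value lay below 3.01 log2 units, the 25th percentile of gene signals, as did a control value in 4. No background measurement was used here, and a difference that reaches so dim a value may understate the gap.

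**Figure D1:**
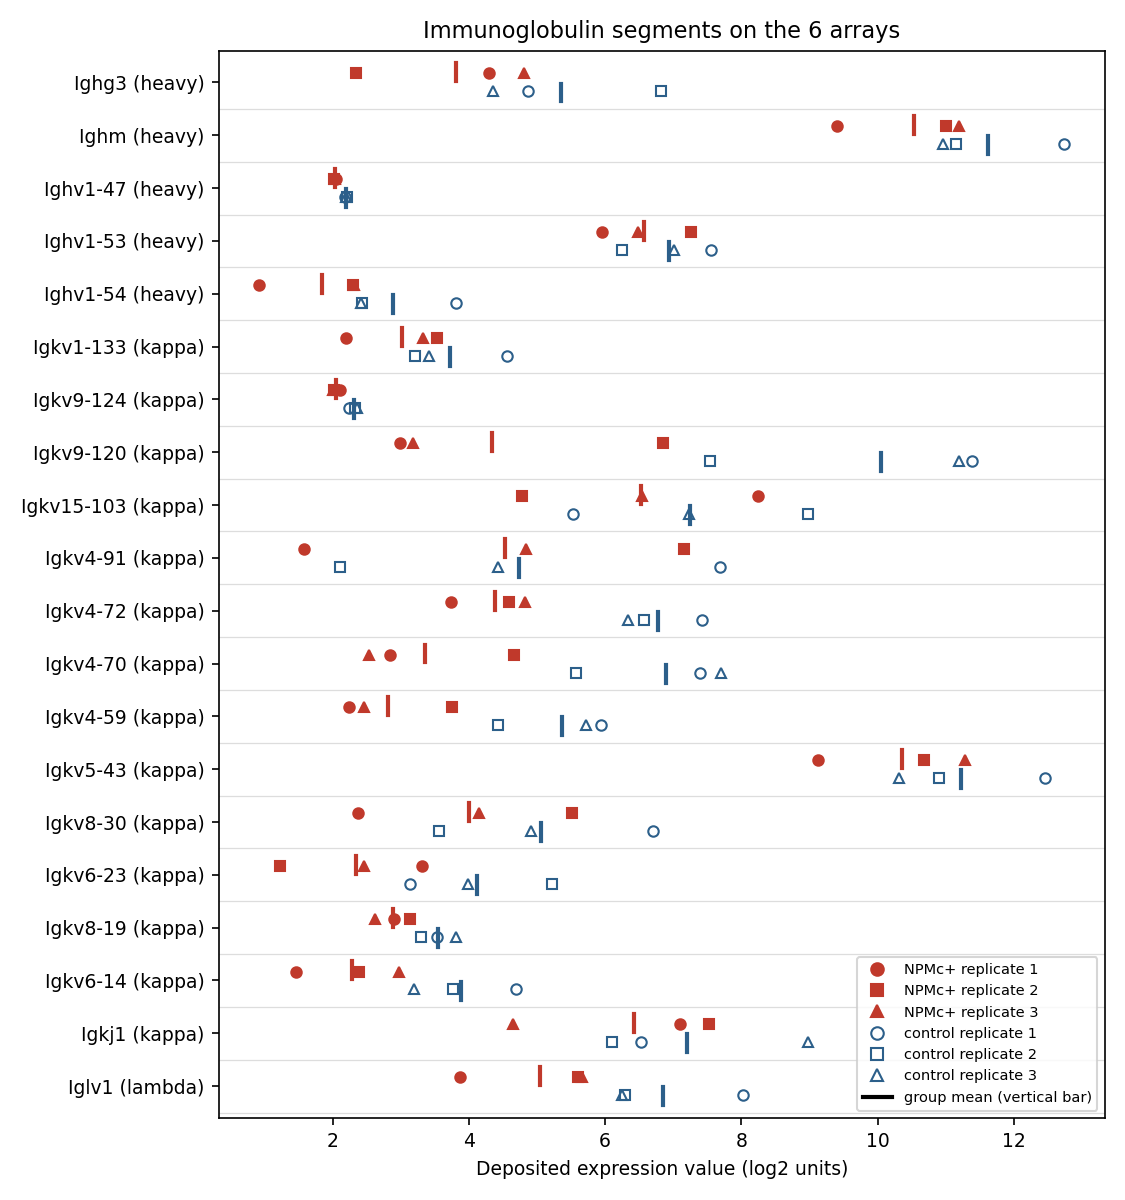
Deposited expression values (log2 units, horizontal axis) of the 20 immunoglobulin segments on each array, NPMc+ pools as filled red symbols above control pools as open blue symbols, with the symbol shape giving the replicate and a vertical bar the group mean. Every NPMc+ mean lies left of its control mean, the groups separate fully in 10 members, and Igkv9-120 shows the widest gap, at 4.34 in NPMc+ and 10.04 in control.

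Of the heavy chain constant regions, Ighm encodes the mu chain of IgM, the first antibody class a B cell makes. Its brightest probe set had 9.41, 11.00 and 11.20 log2 units in NPMc+ pools 1, 2 and 3, against 12.74, 11.15 and 10.96 in control pools. The groups overlapped, since the gap lay in pair 1 while pairs 2 and 3 were nearly level. The mean difference was -1.08 ± 0.66 log2 units (SE; 95% interval -2.68 to 0.52), with a limma adjusted p of 0.734. Without pair 1 it was 0.04.

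Ighm was read by 7 probe sets, which did not move as one. The second brightest had 8.74, 9.91 and 8.97 log2 units in NPMc+ and 11.60, 10.44 and 11.37 in control, so that it was lower in 3 of 3 pairs (-1.93 ± 0.44, SE; limma adjusted p 0.418). The fourth was also lower in 3 of 3 pairs, with its widest gap in pair 2, at 4.28 in NPMc+ and 9.02 in control. The third, with differences of -2.02, -0.87 and 0.11 in pairs 1, 2 and 3, resembled the brightest in having its gap in pair 1. The 3 dimmest had mean differences of 0.27, -0.29 and 0.39 and mixed signs. Of the 7 probe sets 5 had a negative mean difference, 6 were lower in pair 1, 6 in pair 2 and 4 in pair 3. The mean of the 7 differed by -0.81 log2 units, with an unadjusted limma p of 0.0101 against 0.15 for the brightest alone. The gaps of the 7 fell in different pairs, which averaging evens out, so the smaller p does not come from probe sets that moved together.

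**Figure D2:**
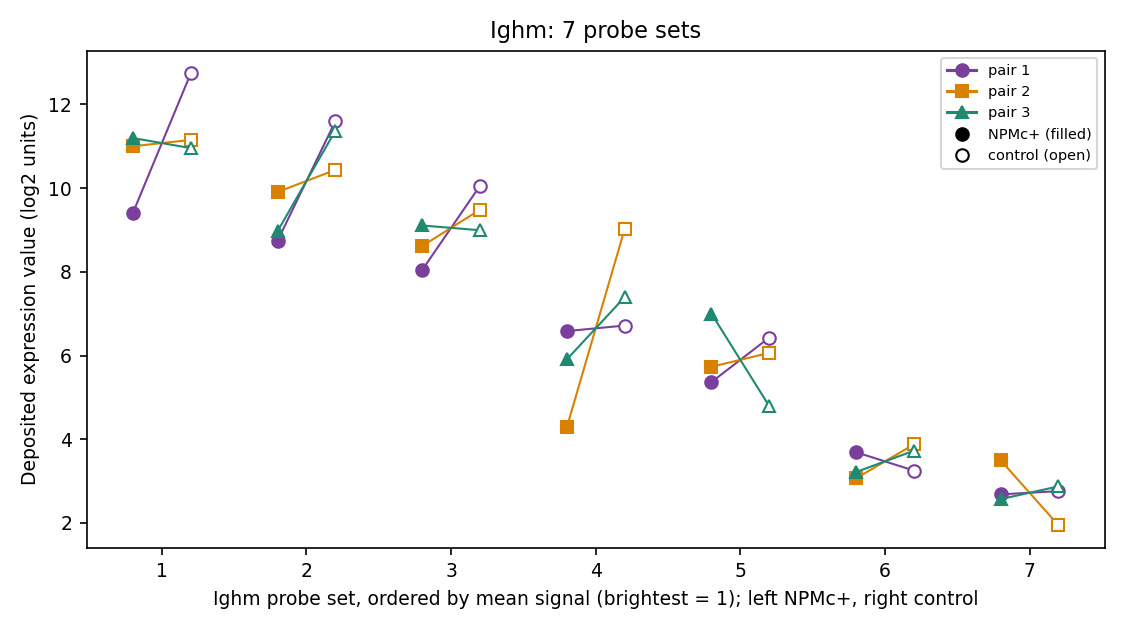
Deposited expression values (log2 units) of the 7 Ighm probe sets in order of mean signal, with NPMc+ (filled) left of control (open) and a line joining each pair. The steep lines of pair 1 in the 3 brightest probe sets, of pair 3 in the second and of pair 2 in the fourth show that the pair with the largest gap depended on the probe set. In the fifth, pair 3 ran the other way, with NPMc+ above control.

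Ighg3, the constant region of IgG3, a class made after switching, had 4.30, 2.34 and 4.81 log2 units in NPMc+ and 4.87, 6.82 and 4.36 in control. Its gap lay in pair 2, at -4.48 log2 units, the second lowest of all genes in that pair, and the groups overlapped. The mean difference was -1.53 ± 0.86 (SE; 95% interval -3.63 to 0.56; limma adjusted p 0.703), and the second, dimmer Ighg3 probe set differed by 0.25. Without pair 2 the difference was -0.06 (unadjusted limma p 0.844), and without pair 3 it was -2.53 (0.0218).

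The 3 heavy chain V segments all belong to the large Ighv1 family and gave no member past an unadjusted p of 0.05 in limma. Ighv1-53 had 5.96, 7.26 and 6.49 log2 units in NPMc+ and 7.55, 6.24 and 7.02 in control, lower in pairs 1 and 3 and higher in pair 2. Ighv1-54 had 0.92, 2.30 and 2.32 in NPMc+ and 3.81, 2.43 and 2.41 in control. It was lower in 3 of 3 pairs, with a difference of -2.88 in pair 1 and of -0.14 and -0.09 in pairs 2 and 3, and its signal lay below the 25th percentile of all genes. Ighv1-47 was dim as well and nearly flat, at 2.04, 2.02 and 2.03 in NPMc+ and 2.19, 2.21 and 2.20 in control. Its groups were separate although the difference was only -0.17 ± 0.16 log2 units (SE).

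The kappa V segments held the widest gaps. Igkv9-120 had 2.99, 6.84 and 3.18 log2 units in NPMc+ pools and 11.39, 7.54 and 11.20 in control pools. The differences were -8.40, -0.70 and -8.02 in pairs 1, 2 and 3, and the groups did not overlap. The NPMc+ values of pairs 1 and 3 lie near the 25th percentile of gene signals, so the sizes of these gaps are not well measured. Its mean difference, -5.70 ± 1.43 log2 units (SE by limma; 95% interval -9.16 to -2.25), was, as measured, the lowest of all 22180 genes, as were its differences in pairs 1 and 3 taken singly. The limma p was 0.00655 unadjusted and 0.455 adjusted. The SE from its own 3 differences is 2.51 log2 units, wider than limma's.

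The Igkv4 family had 4 members, of which 3 were lower in every pair. Igkv4-70 had 2.84, 4.67 and 2.54 log2 units in NPMc+ and 7.40, 5.57 and 7.70 in control, a difference of -3.54 ± 0.77 (SE; limma adjusted p 0.385) and the second lowest of all genes. Igkv4-59 had 2.24, 3.75 and 2.46 in NPMc+ and 5.94, 4.43 and 5.72 in control, a difference of -2.54 ± 0.56 (SE; limma adjusted p 0.385). In both, as in Igkv9-120, pairs 1 and 3 carried wide gaps and pair 2 a narrow one. Without pair 2, Igkv9-120, Igkv4-70 and Igkv4-59 had differences of -8.21, -4.86 and -3.48 and passed the adjusted threshold in limma, at 7.78e-04, 0.0138 and 0.0423. That run leaves out the very pair in which these segments had narrow gaps, so smaller p-values follow from the choice of pair and add no support. Without pair 1 or without pair 3, 0 members passed it.

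Igkv4-72 was the most even of the family, with 3.74, 4.59 and 4.82 log2 units in NPMc+ and 7.43, 6.57 and 6.34 in control. It was 5.27-fold lower (-2.40 ± 0.41 log2 units, SE), with an unadjusted limma p of 8.95e-04, the smallest among the members, and an adjusted p of 0.315. The fourth, Igkv4-91, ran both ways. It had 1.58, 7.16 and 4.83 in NPMc+ and 7.69, 2.11 and 4.43 in control. Its difference of -6.11 was the second lowest of all genes in pair 1, and its difference of 5.05 was the highest of all genes in pair 2. Its mean of -0.22 ± 1.84 (SE) therefore describes neither pair, and without pair 1 it was 2.73 (unadjusted limma p 0.043).

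Another 3 kappa V segments had a limma unadjusted p under 0.05. Igkv6-14 had 1.47, 2.40 and 2.97 log2 units in NPMc+ and 4.70, 3.77 and 3.19 in control, lower in 3 of 3 pairs (-1.61 ± 0.52, SE). Igkv6-23 had 3.32, 1.23 and 2.47 in NPMc+ and 3.14, 5.23 and 3.99 in control. Its differences were 0.18, -4.0 and -1.52 in pairs 1, 2 and 3 (mean -1.78 ± 0.70, SE), and its NPMc+ value in pair 2 lay far below the 25th percentile of gene signals. Igkv8-19 was lower in 3 of 3 pairs with smaller gaps, of -0.63, -0.17 and -1.18 in pairs 1, 2 and 3. Each of the 3 was past an unadjusted p of 0.05 only with certain pairs: Igkv6-14 had a p of 0.0607 without pair 1, Igkv6-23 0.152 without pair 2 and 0.0716 without pair 3, and Igkv8-19 0.0801 without pair 1 and 0.136 without pair 3 in limma.

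The remaining kappa V segments, given so that every member is accounted for, had no unadjusted limma p under 0.05. Igkv9-124 was dim and nearly flat, with a mean difference of -0.26 and separate groups. Igkv15-103 had 8.24, 4.79 and 6.54 log2 units in NPMc+ and 5.53, 8.99 and 7.23 in control, higher in pair 1 and lower in pairs 2 and 3. Igkv8-30 had a difference of -4.33 in pair 1 and 1.95 in pair 2. Igkv1-133 had one of -2.36 in pair 1, with 0.33 and -0.10 in pairs 2 and 3. Igkv5-43, read by 3 probe sets, had 9.13, 10.68 and 11.28 on the brightest in NPMc+ and 12.46, 10.90 and 10.31 in control, with its gap in pair 1 as for the brightest Ighm probe set. The mean of its 3 probe sets differed by -1.25 (unadjusted limma p 0.00238), against -0.86 on the brightest (0.289). The second probe set, however, had its gap in pair 2 (-4.01) and was 1.36 higher in pair 3, and the third had its gap in pair 3 (-3.96). Averaging gaps that fall in different pairs evens out the 3 pair differences, so the smaller p does not come from probe sets that moved together.

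Igkj1 was the only member annotated as a J segment. Its probe set is numbered between those of Igkv9-124 and Igkv4-91, out of locus order, so what it reads is uncertain. Igkj1 had 7.10, 7.53 and 4.65 log2 units in NPMc+ and 6.52, 6.10 and 8.98 in control. It was higher in pairs 1 and 2 and 20.1-fold lower in pair 3, so that the groups overlapped and the mean of -0.77 ± 1.03 (SE) rested on pair 3. Without pair 3 it was 1.005 log2 units higher in NPMc+ (unadjusted limma p 0.0104). The lambda V segment Iglv1 had 3.87, 5.61 and 5.65 in NPMc+ and 8.03, 6.29 and 6.24 in control. It was lower in 3 of 3 pairs without overlap (-1.81 ± 0.68, SE; limma p 0.0365 unadjusted and 0.58 adjusted), by 17.8-fold in pair 1 and by 1.61-fold and 1.5-fold in pairs 2 and 3.

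**Figure D3:**
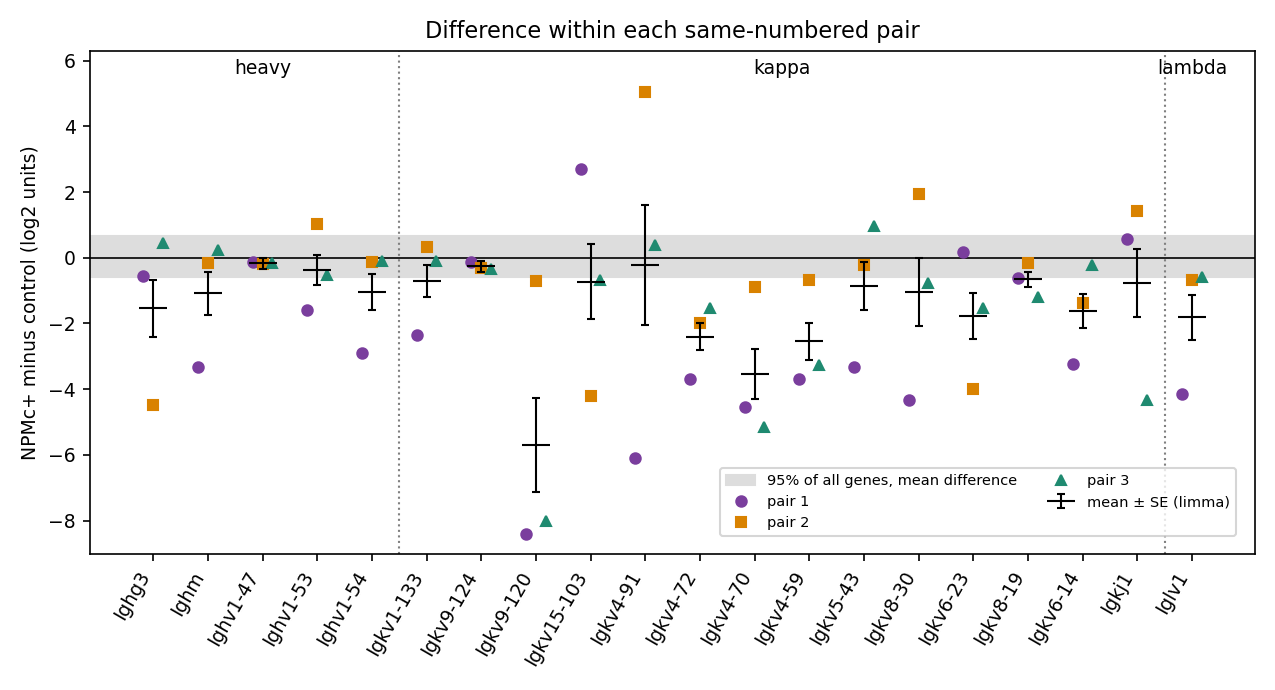
NPMc+ minus control (log2 units) for each immunoglobulin segment in pairs 1, 2 and 3, with the mean and its SE from limma in black and a grey band holding the mean differences of 95% of all genes (-0.57 to 0.66). Points of most segments lie far apart, those of Ighv1-47 and Igkv9-124 close together, and the segment with the widest gap differs from pair to pair: Igkv9-120 in pairs 1 and 3, Igkv4-91 upward and Ighg3 downward in pair 2.

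Compared by chain, the median difference was -1.04 log2 units for heavy, -0.95 for kappa and -1.81 for lambda segments, the last being Iglv1 alone. Heavy medians were -1.59, -0.15 and -0.09 in pairs 1, 2 and 3, and without pair 1 the heavy median of mean differences was -0.11. Kappa medians were -3.28, -0.49 and -0.97 in the same pairs, and without pair 2 the median of mean differences was -1.80. Over all genes the pair medians lay between -0.02 and 0.00. The heavy median was less negative than the kappa median by 1.69, 0.34 and 0.88 log2 units in pairs 1, 2 and 3. For the mean differences the order was reversed, at -1.04 for heavy and -0.95 for kappa segments. The heavy medians of -1.04 for the mean differences and -0.09 in pair 3 were both values of the dim Ighv1-54. A mean signal below 3.01 log2 units was found in 2 of the 5 heavy and 1 of the 14 kappa members. With so few members the comparison is a description only. Of the 8 members at an unadjusted limma p under 0.05, 0 were heavy, 7 kappa and 1 lambda.

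Summed on the linear scale, the signal of the 5 heavy members was 768 to 2475 in NPMc+ pools and 2147 to 7091 in control pools, which overlap. The sum of the 14 kappa members was 1071 to 2730 in NPMc+ and 2933 to 9230 in control, and that of Iglv1 14.6 to 50.4 in NPMc+ and 75.7 to 261 in control, in both without overlap. Pair 1 held the lowest NPMc+ and the highest control sum in each of the 3 chains. As same-numbered arrays are tied gene by gene, the low and the high sum are not separate observations. These sums are carried by the few brightest probe sets, among them Ighm, Igkv5-43 and, in control pools 1 and 3, Igkv9-120. The separation of the kappa sums was not shared by all parts of the chain. The 7 V segments nearer to the J segments summed to 598 to 2532 in NPMc+ and 1600 to 6000 in control, which overlap. The 6 farther ones, Igkv9-120 among them, summed to 173 to 336 in NPMc+ and 807 to 2622 in control, without overlap.

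The pairs differed in which members stood apart. In pair 1, 17 of the 20 members were lower in NPMc+ (49.9% of all genes) and 13 were lower by more than 1 log2 unit, where 1.28% of all genes were, and 8 of the 10 lowest differences among all genes were immunoglobulin segments. In pair 2, 15 were lower (51.7% of all genes), 5 by more than 1 log2 unit (2.01% of all genes), while 4 were higher by more than 1 (4.27% of all genes), and 3 of the 10 lowest genes were members. In pair 3, 16 were lower (51.4% of all genes), 7 by more than 1 log2 unit (2.29% of all genes), 0 were higher by more than 1 (2.71% of all genes), and 4 of the 10 lowest genes were members. Averaged over the pairs, 4 of the 10 lowest genes were Igkv9-120, Igkv4-70, Igkv4-59 and Igkv4-72.

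By signal, the 12 members at or above the median signal of all genes had a median difference of -1.07 and a median SD over pairs of 2.45 log2 units, against -0.87 and 1.48 for the 8 below it. The 3 members below the 25th percentile, Ighv1-47, Ighv1-54 and Igkv9-124, had separate groups in all 3, with differences of -0.35 to -0.09 outside pair 1. In the RefSeq order of the kappa locus, the 7 V segments nearer to the J segments had a median difference of -1.61 and the 6 farther away -0.72. The averages of the same differences were nearly equal, at -1.72 for the nearer and -1.67 for the farther segments. An effect of position in the locus was not tested. The Igkv4 members follow each other in the order of measured segments.

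Of 57 listed genes that build, express or bind immunoglobulin, 52 were measured. Of the 52, 14 were lower and 0 higher at an unadjusted limma p under 0.05, where 3.07% of all genes were lower and 5.12% higher. The same shares stand beside each count of listed genes below. The median difference of the 52 was -0.11. Of recombination genes 2 of 10 were lower. Rag2, a subunit of the RAG recombinase, had 3.10, 3.05 and 2.98 log2 units in NPMc+ and 3.61, 3.66 and 3.73 in control (-0.62 ± 0.16, SE). Dntt, which adds nucleotides at the joints and is also expressed in lymphoid progenitors, had 6.26, 6.08 and 6.47 in NPMc+ and 6.91, 7.09 and 6.70 in control (-0.63 ± 0.20, SE). Both were lower in 3 of 3 pairs without overlap of the groups, as were 15.4% of all genes. The end-joining genes Xrcc4, Xrcc5, Xrcc6, Lig4, Prkdc and Nhej1, which all cells use, had differences of -0.24 to 0.50 with mixed signs.

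Of the partners of immunoglobulin chains 2 of 6 were lower, Vpreb3 (-1.54 ± 0.31 log2 units, SE), which binds immunoglobulin chains in precursor B cells, and the receptor chain Cd79a (-1.24 ± 0.16, SE). The surrogate light chain genes, which stand in for kappa and lambda in pre-B cells, were not past the threshold: Igll1 differed by -0.70 ± 0.37 (SE) with mixed signs. Vpreb1, below the 25th percentile of signals, differed by -0.19 ± 0.25 (SE) and Vpreb2 by 0.17 ± 0.23 (SE), both with mixed signs.

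Among transcription factors that act on the immunoglobulin loci 6 of 14 were lower at an unadjusted limma p under 0.05. They were Ebf1 (4.51-fold), Irf4 (3.0-fold), the octamer coactivator Pou2af1 (2.63-fold), the Ikaros family factor Ikzf3 (2.40-fold), Irf8 (1.74-fold) and Spib (1.54-fold), each in 3 of 3 pairs. Pax5 differed by -0.03, Tcf3 by 0.01, and Pou2f2 by 0.09. Their limma adjusted p-values were 0.108 for Ebf1 and 0.275 or above for the others.

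Of genes of antibody secretion 2 of 8 were lower. Jchain, which links IgM and IgA into polymers, had 6.33, 7.29 and 7.18 log2 units in NPMc+ and 9.42, 8.46 and 8.57 in control, a difference of -1.89 ± 0.38 (SE; limma adjusted p 0.379). The groups did not overlap, and each pair was lower by more than 1 log2 unit, pair 1 by the most. Sdc1, the CD138 marker of plasma cells, differed by -0.82 ± 0.24 (SE). The plasma cell factors Xbp1 and Prdm1 differed by 0.26 and 0.01. Among 11 receptors and carriers of immunoglobulin, Fcer2a (CD23 of B cells; -0.94 ± 0.19, SE) and the B cell gene Fcrla (-0.52 ± 0.20, SE) were lower, and 0 of 3 measured class switch and repair genes passed.

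Markers of B cells were lower beside the immunoglobulin segments, and their medians lay closer together in the 3 pairs than those of the chains. Of 9 B lineage markers 8 were lower at an unadjusted limma p under 0.05 (3.07% of all genes). Their medians were -1.25, -1.27 and -1.05 in pairs 1, 2 and 3, and their summed linear signal was 212 to 230 in NPMc+ and 474 to 499 in control. Of 9 pro-B and pre-B markers 5 were lower, with a summed signal of 225 to 270 in NPMc+ and 424 to 488 in control, and of 7 plasma cell markers 2 were lower, with 402 to 480 in NPMc+ and 633 to 980 in control. These lists are not separate from the genes above: all 7 plasma cell markers, 8 of the 9 pro-B and pre-B markers and 3 of the 9 B lineage markers are in that list too, with 2 of 2, 4 of 5 and 2 of 8 of the lower genes. The gap between the plasma cell sums rests largely on Jchain (-1.89), a bright gene. Of the other plasma cell markers, Sdc1 and Mzb1 differed by -0.82 and -0.53, and Derl3, Tnfrsf17, Prdm1 and Xbp1 by -0.13 to 0.26. Markers of other lineages were lower too: 6 of 9 for neutrophils (medians -1.92, -1.35 and -0.04), 5 of 6 for erythroid cells (medians -1.04, -0.56 and -0.88) and 2 of 6 for T cells, with 1 higher. Of 9 LT-HSC markers 5 were higher and 0 lower at the same threshold, where 5.12% of all genes were higher and 3.07% lower. The neutrophil list had the largest summed signal, at 9935 to 14784 in NPMc+ and 14718 to 23040 in control. The LT-HSC list had 2436 to 2768 in NPMc+ and 1518 to 1684 in control. Erythroid markers summed to 444 to 520 and 780 to 931, and T cell markers to 177 to 297 and 205 to 305, in the same order. In the B lineage list 0 markers were below the 25th percentile of signals, as in the plasma cell list, and in the pro-B and pre-B list 1, Vpreb1, was. Their part in the immunoglobulin differences was not tested.

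**Figure D4:**
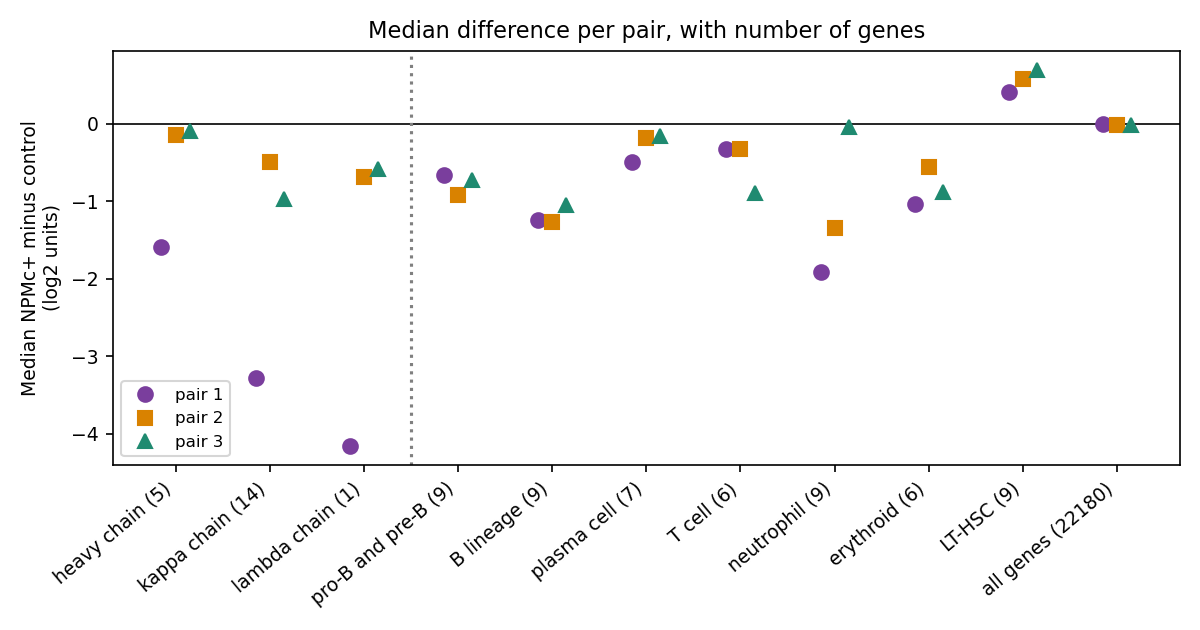
Median of NPMc+ minus control (log2 units) in pairs 1, 2 and 3 for heavy, kappa and lambda segments (left of the dotted line), for marker lists of cell types and for all genes, with the number of genes in brackets. The chain medians were lowest in pair 1, at -1.59, -3.28 and -4.15, whereas the B lineage medians lay between -1.27 and -1.05 in the 3 pairs.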

How the data were processed

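The authors deposited log2 expression values of 41345 probe sets on 6 arrays. The submitters' processing notes name RMA, which corrects background, normalizes between arrays and summarises probes; no version is given in the sources used here, nor the step that equalised the pair means. Precision is limited by the number of arrays. Probe sets were named from GEO's platform annotation: 23521 had 1 symbol, 1814 several and 16010 none, and 22180 genes were tested without a filter. Symbols of all 20 members matched the RefSeq table. Groups and replicate numbers came from titles.

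NPMc+ minus control was fitted with limma 3.58.1 in R 4.3.3, two-sided, by lmFit and eBayes, and the replicate number was a block, leaving 2 residual degrees of freedom and 4.251 prior ones. The block was used because its effect is already absent from the values, in which same-numbered arrays are tied. Benjamini-Hochberg adjustment ran over every gene tested. On 10 simulated sets of 22180 genes, 5.8% of unchanged genes had p under 0.05 with the block and 19.3% without. The simulated SDs were drawn from all genes. These shares therefore do not give the rate for the members, most of which scattered far more. Named V segments were those with 1 sign in 3 of 3 pairs (up to 5 from each end of the mean differences per chain), and all constant, J and lambda segments, list genes with unadjusted p under 0.05 and Rag2, Dntt, Igll1, Vpreb1 and Jchain were named too; other members were added to account for all. Kit, Fgd5, Xist, Vpreb2, Pax5, Tcf3, Pou2f2, Xbp1, Prdm1, Mzb1, Derl3, Tnfrsf17 and the end-joining genes fall outside this rule and were chosen after their values were seen. Members, lists and rules were chosen with earlier results of these data known. The series' design text calls the replicates biological. No member sequences are printed. Python 3.11.15, pandas 2.3.3 and matplotlib 3.10.9 made summaries and figures.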

Additional observations from a re-analysis of the deposited data

How the results depend on the processing

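The count of 8 members lower at an unadjusted limma p under 0.05 stayed within 1.5 times under every alternative run: 10 without the replicate block, where 11.8% of all genes were lower against 3.07% with it, 8 with a filter at the 25th percentile, 11 of 29 with every probe set, 10 with the mean of a gene's probe sets, 8 each with quantile normalization, an intensity trend and a robust prior, and 7 to 10 with 1 pair left out. In the alternatives with the block 2.66% to 3.82% of all genes were lower. Members higher at that threshold were 0 under each, apart from 0 to 1 with 1 pair left out. Members past the adjusted threshold in limma were 1 without the replicate block, Igkv4-72 at an adjusted p of 0.0346, and 0 to 3 with 1 pair left out. Over all genes, 826 passed without the block against 0 with it, 0 without pair 1, 3 without pair 2 (Igkv9-120, Igkv4-70 and Igkv4-59) and 5 without pair 3. Those 3 segments had their narrowest gap in pair 2, the pair left out. The chain medians with 1 pair left out ranged from -1.51 to -0.11 for heavy, -1.80 to -1.12 for kappa and -2.42 to -0.64 for lambda. Between probe sets of a gene directions also turned, as given for Ighm and Ighg3. Among the alternatives, the brightest or mean value of a gene changed direction only when a pair was left out: differences ranged from -1.74 to 0.045 for Ighm, -1.06 to 0.25 for Ighv1-53, -1.23 to 0.12 for Igkv1-133, -2.44 to 1.01 for Igkv15-103, -2.85 to 2.73 for Igkv4-91, -1.77 to 0.37 for Igkv5-43, -2.55 to 0.59 for Igkv8-30 and -1.88 to 1.005 for Igkj1. Leaving out a pair also took members past an unadjusted limma p of 0.05: Ighm, Ighg3, Ighv1-54 and Igkv5-43 without pair 3 (0.0427, 0.0218, 0.0446 and 0.0372), Ighv1-53 and Igkv8-30 without pair 2 (0.013 and 0.0166), and Igkv15-103 without pair 1 (0.0251). With 3 pairs, signal near background limits the dim segments.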

Other observations

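Probe sets outside the rule read the same loci. The 5 probe sets annotated to several immunoglobulin segments at once had mean differences (NPMc+ minus control) of -2.87, -1.46, -0.80, -1.12 and -0.68 log2 units, negative in all 5. Their means over the 6 arrays were 8.68 to 12.28 log2 units. In the first, NPMc+ pools had 6.38, 8.69 and 7.82 log2 units and control pools 11.74, 9.44 and 10.31. The difference in pair 1 ran from -5.36 to -0.39, and in pair 3 from -2.49 to 0.05, so that these probe sets too differed most between pools of pair 1 in 4 of 5 cases. Igh-VS107, a heavy chain locus name that the rule does not match, had 2 probe sets. The brighter had 10.03, 10.34 and 10.18 in NPMc+ and 10.67, 10.37 and 10.53 in control, and the dimmer 1.64, 4.19 and 2.94 in NPMc+ and 6.46, 3.91 and 5.16 in control.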
